A study of Mus musculus with 2 samples.

Results

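Endothelial cells made up 59 of the 9344 cells in 2 single-cell libraries of the stromal vascular fraction (SVF) of mouse subcutaneous fat, 0.631% of all cells (95% Clopper-Pearson interval 0.481 to 0.814). A cell was taken as endothelial when it held transcripts of at least 3 of 12 endothelial markers (Pecam1, Cdh5, Kdr, Flt1, Cldn5, Emcn, Egfl7, Esam, Tie1, Plvap, Ptprb and Cd93), when Col1a1, Col1a2, Col3a1 and Dcn together stayed under 1% of its unique molecular identifiers (UMIs, counted transcripts), when it held at most 1 UMI of the leukocyte gene Ptprc, and when C1qa, C1qb and C1qc stayed under 0.2%. The adolescent library came from 2-week-old and the adult library from 8-week-old wild type male C57BL/6J mice. Inguinal subcutaneous fat of several mice per age was digested with collagenase, and live cells were sorted by 7-AAD exclusion with no enrichment for vessels. The SVF holds the cells that remain once floating adipocytes are removed, and it was sequenced with the 10x droplet method, which tags 1 end of each transcript. The files held 3915 adolescent cells with 28010800 UMIs and 5429 adult cells with 29517430 UMIs. With 1 library per age, no value below has a replicate check. All intervals cover counting error only.

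Endothelial cells line blood and lymph vessels, are joined by cadherin and claudin junctions, and depend on the vascular endothelial growth factor (VEGF) receptors Kdr and Flt1. In adipose tissue the capillary lining also handles fat: Gpihbp1 carries lipoprotein lipase to the vessel lumen, Cd36 takes up fatty acids, and the binding proteins Fabp4 and Fabp5 move them through the cell. Arterial, capillary, venous and lymphatic endothelium are told apart by distinct sets of genes, such as Gja4 and Sox17 in arteries and Prox1 in lymphatics.

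The adolescent library gave 16 endothelial cells, 0.409% of its cells (0.234 to 0.663), and the adult library 43, or 0.792% (0.574 to 1.07). The 2 intervals overlapped, between 0.574% and 0.663%. The adolescent cells had a median of 4000.5 UMIs and the adult cells of 3021, against 5692 and 4164 in all other cells of the same library. In all, the 59 cells held 222865 UMIs, 81743 of them adolescent. Mitochondrial transcripts took 3.97% of the UMIs of the adolescent and 1.93% of those of the adult endothelial cells, against 2.19% and 2.14% in all other cells.

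The 12 markers chose the cells, so their values describe the choice and do not test it. Cells held a median of 9 of the 12 markers in each library, and 44 of the 59 held 8 or more. There was a gap at the lower edge: 2 cells held 3 markers, none held 4, and 6 held 5. The 23 cells just outside, with 2 markers and all other limits met, held mostly Pecam1, which is also made by leukocytes, and a median of 2 of 25 endothelial genes that the rule did not use. Of those 25 genes, adolescent endothelial cells held a median of 14 and adult ones of 13. A further 6 cells had 3 or more markers but failed another limit. One of these, an adult cell with all 12 markers and 18 of the 25 other genes, had 2.14% of its UMIs from the 4 fibroblast genes.

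A few of the 59 cells went against the name. Adolescent cell 14 had 3 markers, none of the 25 other endothelial genes and 5 of 7 B cell genes. Adult cell 5 had 3 markers, 2 of the 25 and all 7 megakaryocyte and platelet genes, with 37 UMIs of Pf4 and 33 of Ppbp among 1380. These were the same cells as the 2 with exactly 3 markers. Adolescent cell 2, adult cell 17 and adult cell 40 carried 5 or more of 10 genes of mural cells, the pericytes and smooth muscle cells that wrap vessels, beside 8, 9 and 5 of the 12 endothelial markers. Scrublet, which scores cells for likeness to simulated doublets, marked 62 adolescent and 51 adult cells and none of the 59. The libraries shared 22 cell barcodes, none of them in an endothelial cell.

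**Figure D1:**
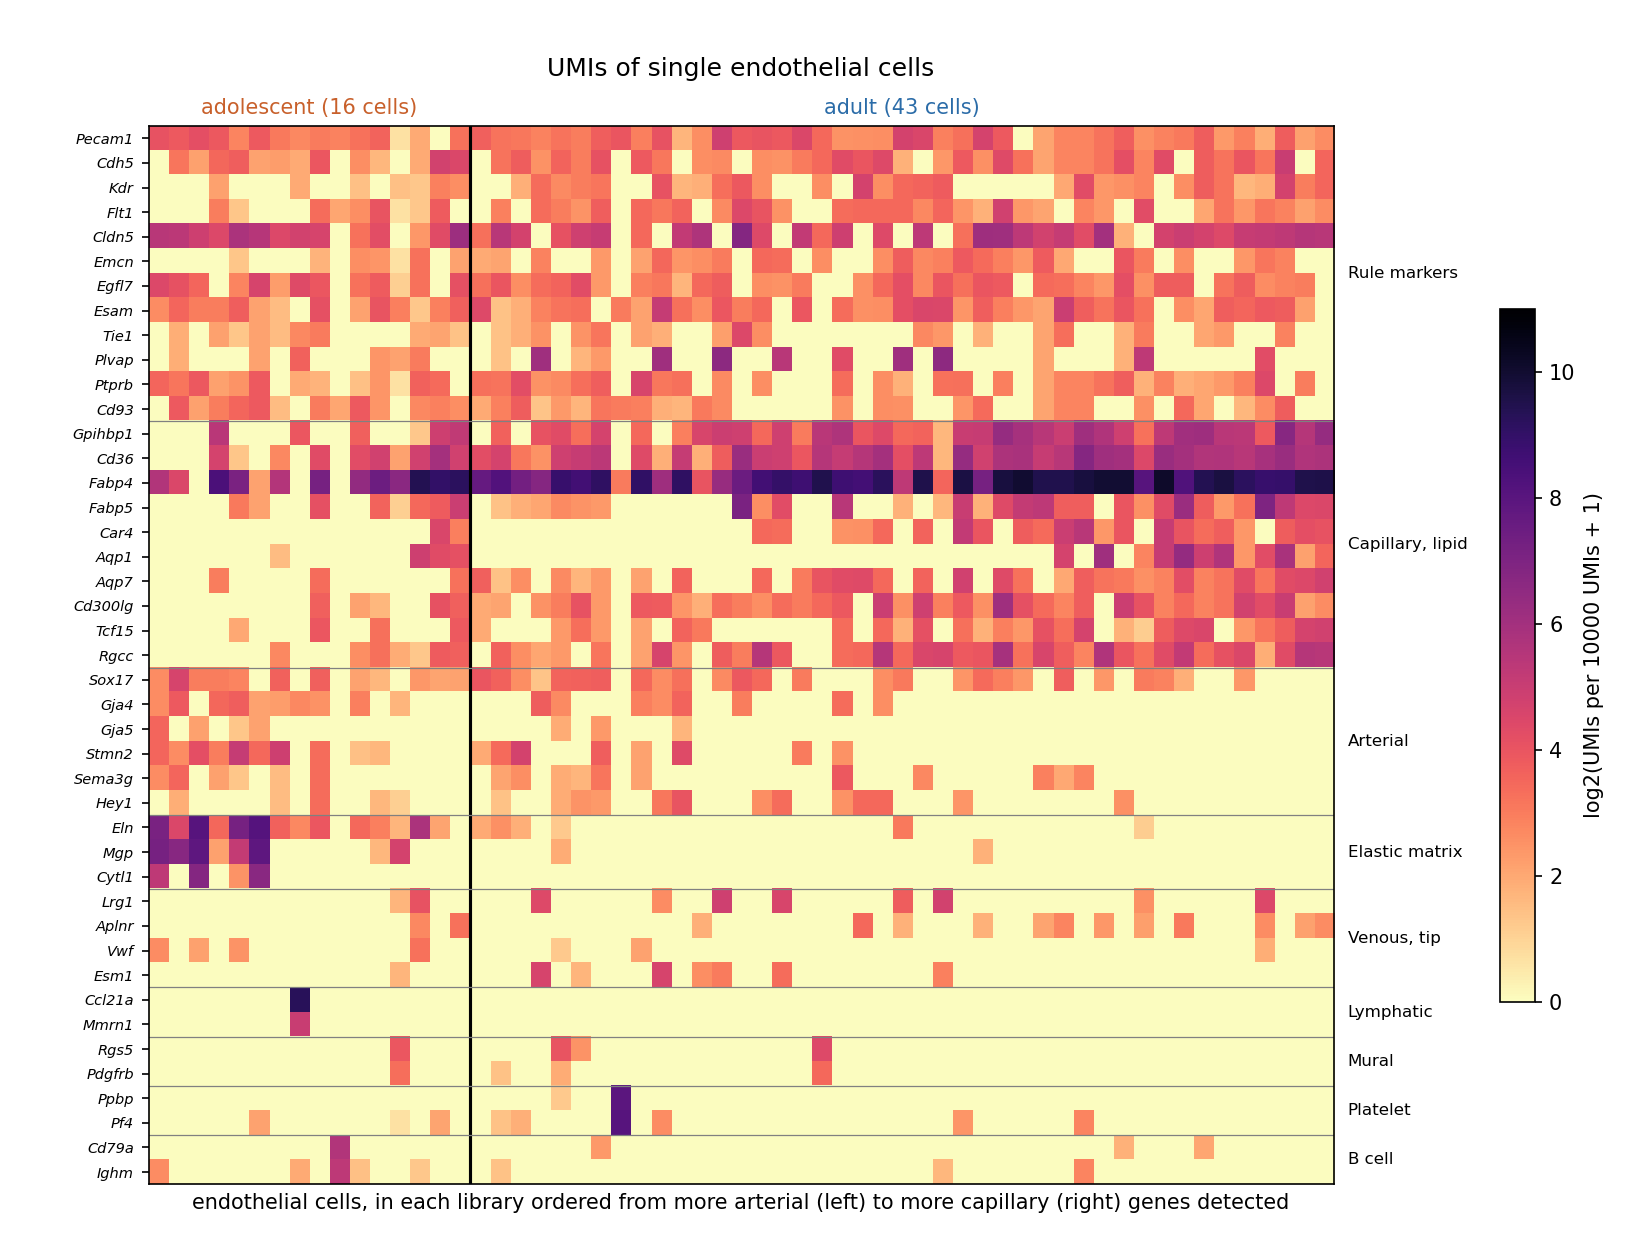
UMIs of 43 genes (rows, by group) in each of the 59 endothelial cells (columns), as log2 of UMIs per 10000 UMIs plus 1, with the 16 adolescent cells left of the black line and the 43 adult cells right of it. Fabp4 was dark in nearly all adult cells, Eln, Mgp and Cytl1 were dark in a few adolescent cells, and the lymphatic, platelet and B cell genes stood out in 1 cell each.

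Cldn5, the claudin of endothelial tight junctions (GRCm38 chr16:18776847-18778262, plus strand), had the highest level of the 12 markers. Its level was 2214 CPM (UMIs of the gene scaled to a sum of 1000000 over the cells of a group) in adolescent and 2303 CPM in adult endothelial cells, and 0.890 CPM in all other cells. Single adolescent cells ranged from 0 to 7173 CPM around a median of 2217, and single adult cells from 0 to 11096 CPM around 2539. Cdh5, the cadherin of endothelial junctions, was at 740 CPM against 0.785 CPM in all other cells. Kdr, the main VEGF receptor, was at 147 CPM in the adolescent and 574 CPM in the adult cells. Pecam1 differed least from the rest of the tissue, at 848 CPM against 19.4 CPM, and 28.2 CPM in leukocyte-rule cells, the 2715 cells with 2 or more Ptprc UMIs and low fibroblast genes.

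Endothelial cells were then set against all other 9285 cells, gene by gene, as a log2 ratio of their CPM, with 1 UMI of the smaller sum added as a pseudocount. Of 1883 genes at 100 CPM or more in either sum, 245 (13.0%) were at least 4-fold higher in endothelial cells and 203 (10.8%) at least 4-fold lower. The median gene had a log2 ratio of 0.31. The cells were chosen by expression, and a gene could reach 100 CPM through the endothelial sum alone, which favours a 4-fold higher call. These counts and those of the gene lists below describe the cells, and nothing is read from the shares. Without the 20 genes of the rule, 233 of 1863 genes were 4-fold higher and 195 were 4-fold lower. Each library taken alone gave the same call for 152 of the 233 genes and for 135 of the 195.

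Outside the genes of the rule, and among genes found in at least 25% of the cells, the ratio was highest for Gpihbp1, the lipoprotein lipase carrier (chr15:75596628-75599481, plus strand). It was at 685 CPM in adolescent and 2558 CPM in adult endothelial cells, and the sum over both was 1702 times the 1.10 CPM of all other cells (95% interval 1303 to 2255). It was found in 6 of 16 adolescent and 39 of 43 adult cells, so the adolescent median was 0 CPM and the adult median 2712 CPM. With each cell thinned to 1000 UMIs, 64.4% of endothelial cells held a Gpihbp1 UMI, against 0.221% of leukocyte-rule cells and 0.0653% of fibroblast-rule cells, the 3065 cells with at least 1% of UMIs from the 4 fibroblast genes. Rbp7, a retinol binding protein, followed at 734 CPM in adolescent and 2105 CPM in adult cells, against 1.47 CPM in all other cells. It was in 7 of 16 and 34 of 43 cells. Tm4sf1, a tetraspanin-like surface protein of endothelium, stood at 2985 CPM in the adolescent and 2983 CPM in the adult cells, a ratio of 155 (141 to 171) to all other cells. Its levels at the 2 ages could not be told apart, and it was in 14 of 16 and 39 of 43 cells.

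The other 17 of the 20 genes with the highest ratios outside the rule fell into a few roles. Sox17, Sox18 and Tcf15 are transcription factors, at 503, 458 and 453 CPM, and each was under 1 CPM in all other cells. Aqp1, Aqp7 and Car4 are the water channel, the glycerol channel and a surface carbonic anhydrase of capillaries, at 655, 489 and 422 CPM. Adgrf5 and Adgrl4, at 422 and 301 CPM, are adhesion receptors of endothelium. Mmrn2, an endothelial matrix protein, was at 350 CPM, Bcam, a laminin receptor, at 507 CPM and Tinagl1, a secreted matrix protein, at 888 CPM. Stmn2, a stathmin best known from neurons, was at 399 CPM in endothelial cells and 0.105 CPM in all others. Cyyr1, Depp1, C1qtnf9, Btnl9 and Myct1 completed the 20, at 354, 323, 314, 310 and 283 CPM.

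**Figure D2:**
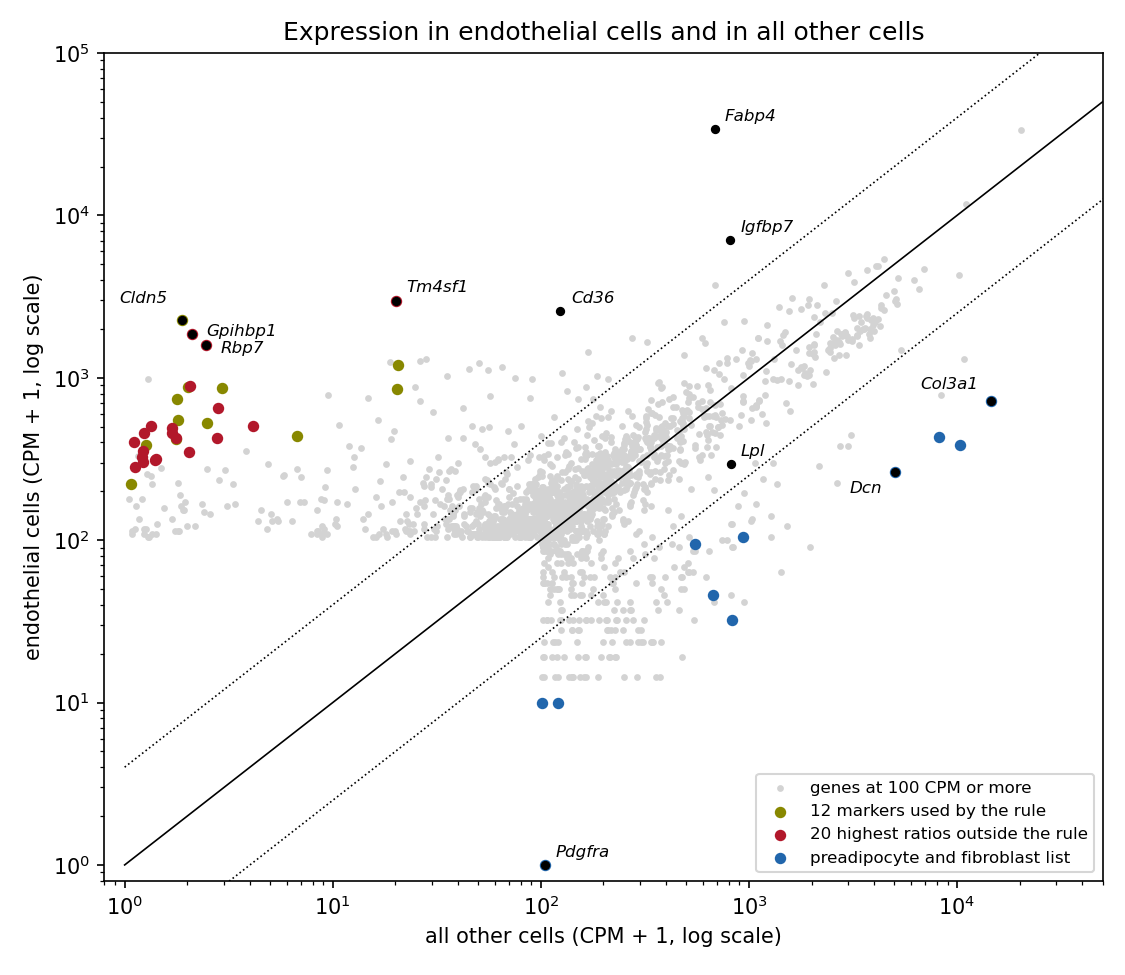
Level of each gene at 100 CPM or more in the summed endothelial cells (vertical) against all other cells (horizontal), both as CPM plus 1 on log scales, with equality as the solid line and 4-fold as dotted lines. Most genes of the rule and of the 20 highest ratios sit at the left edge, Fabp4 at the top, and the fibroblast genes below the lower dotted line.

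At the other end, Ccl9, a chemokine of myeloid cells, had no UMI in the 59 cells, which put it at least 19.6-fold lower than in all other cells when set at a floor of 3 UMIs over the pooled cells (13.5 CPM). Cd3d, Irf8 and Mgl2, of T cells, myeloid cells and macrophages, were at least 9.57, 9.07 and 9.40-fold lower on the same floor. Scara5, a ferritin receptor of fibroblasts, was at least 10.0-fold lower, and Sbsn at least 9.70-fold. The predicted gene Gm12840 was at least 10.4-fold lower. Sfrp2, a Wnt inhibitor, had 2 UMIs, and Akr1c18 and the proteoglycan Gpc3 had 1 UMI each.

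Of the 25 endothelial genes outside the rule, 20 reached 100 CPM, and 18 of them were at least 4-fold higher in endothelial cells, with none lower and a median log2 ratio of 5.03, beside 13.0% and 0.31 over all genes. Tek, the angiopoietin receptor, was 3.31-fold higher (2.27 to 4.66), with 87.0 CPM in fibroblast-rule cells. Cd34, a sialomucin that preadipocytes also carry, was at 381 CPM in endothelial and 375 CPM in all other cells. Ly6c1 was at 3751 CPM against 682 CPM, though reads of the close relatives in its family may be hard to place. Vwf, the clotting factor of larger vessels, was low, at 135 CPM in the adolescent and 21.3 CPM in the adult cells, and was found in 7 cells.

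Among 12 receptors for VEGF, angiopoietins, Notch and bone morphogenetic proteins, 8 were tested. The rule used 3 of these 8 (Kdr, Flt1 and Tie1), and of the other 5 tested 4 were at least 4-fold higher, with a median log2 ratio of 2.38, beside 13.0% and 0.31 over all genes. Flt1, which binds VEGF without strong signalling, was at 294 CPM in adolescent and 659 CPM in adult cells. Nrp1, a VEGF co-receptor, was 8.87-fold higher than in all other cells (7.27 to 10.7), and Eng, a co-receptor of the transforming growth factor family, 25.1-fold (20.4 to 30.7). Acvrl1, the signalling partner of Eng, was at 184 CPM against 38.8 CPM. Flt4, the lymphatic VEGF receptor, had UMIs in 4 cells.

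Of the 14 junction and adhesion genes, 8 were tested. The rule used 4 of these 8 (Cdh5, Cldn5, Esam and Pecam1), and of the other 4 tested 3 were at least 4-fold higher, beside 13.0% of all genes. Jam2 and F11r, both junctional adhesion molecules, were 40.0-fold (29.5 to 53.4) and 94.7-fold (66.8 to 132) higher than in all other cells. Icam2 was at 417 CPM against 18.1 CPM. Icam1, the inducible adhesion molecule for leukocytes, was at 171 CPM in both sums. Sele, the selectin of inflamed endothelium, and Ocln had no UMI in 59 cells. A floor of 3 cells is 5.08% of them, and the exact 95% interval for a count of 0 reaches 6.06% of cells with a UMI. Neither value limits the share of cells that express the gene.

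Of 15 transcription factors, 11 were tested and 5 were at least 4-fold higher, with a median log2 ratio of 1.97, beside 13.0% and 0.31 over all genes. The 5 were Sox17, Sox18, Tcf15, Meox2 and Gata2. Meox2 was at 171 CPM against 5.97 CPM, and Gata2 at 171 CPM against 9.46 CPM. Klf2, a factor induced by blood flow, had the highest level of the list, at 1642 CPM, and was 2.67-fold higher than in all other cells (2.40 to 2.96). Klf4 was at 862 CPM against 818 CPM.

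Of the 14 genes of capillaries and lipid uptake, 13 were tested and 12 were at least 4-fold higher, with a median log2 ratio of 5.38, beside 13.0% and 0.31 over all genes. Fabp4 (chr3:10204088-10208576, minus strand) was the most abundant, at 19194 CPM in adolescent and 42531 CPM in adult endothelial cells. Single adolescent cells ranged from 0 to 66544 CPM around a median of 9221, and single adult cells from 725 to 109494 CPM around 48155. The sum was 49.8 times that of all other cells (48.6 to 51.0), where Fabp4 was at 682 CPM, with 1160 CPM in fibroblast-rule and 137 CPM in leukocyte-rule cells. Cd36, the fatty acid transporter, was at 1248 CPM in adolescent and 3323 CPM in adult cells, and 20.8-fold higher than in all other cells (19.1 to 22.6). Fabp5 was at 1108 CPM against 54.5 CPM, and Cd300lg, a mucin-like protein of capillaries, at 754 CPM against 13.8 CPM. Pparg, the nuclear receptor that drives Fabp4 in fat, was at 242 CPM against 20.7 CPM. Lpl, the lipase itself, was the exception: 292 CPM in endothelial cells, 814 CPM in all others and 1429 CPM in fibroblast-rule cells.

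Of 12 arterial genes, 9 were tested and all 9 were at least 4-fold higher in endothelial cells, beside 13.0% of all genes. Genes such as Gja4 and Stmn2 reached 100 CPM only through the endothelial sum, so this count is a description and tests nothing. Gja4, the connexin of arterial endothelium, was at 391 CPM in adolescent and 177 CPM in adult cells, against 0.279 CPM in all other cells. Sox17 was at 465 and 524 CPM in the 2 ages and was found in 12 of 16 and 26 of 43 cells. Cxcl12, a chemokine of arteries and of stroma, was at 1440 CPM, with 316 CPM in fibroblast-rule cells. Stmn2 was in 18 of the 59 cells, and 11 of those 18 cells also held Gja4, which was itself in 18 cells. Of the 11 arterial genes other than Stmn2, the 18 cells with Stmn2 held a median of 6 and the 41 cells without it a median of 2, at a median of 3590 and 3152 UMIs.

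Car4 and Stmn2 were rarely found in the same cell. Car4 was found in 24 cells and Stmn2 in 18, and 1 cell held both. The 2 libraries differed in both genes: Car4 was in 2 of 16 adolescent and 22 of 43 adult cells, and Stmn2 in 10 of 16 and 8 of 43. Both were in 0 adolescent cells and 1 adult cell. The pooled counts and medians for cells with and without Car4 or Stmn2 therefore also carry the difference between the libraries. Car4 and Gja4 were found together in 2 cells. Of the 13 capillary genes other than Car4, the 24 cells with Car4 held a median of 10 and the 35 without it a median of 7, and of the 12 arterial genes 2.5 and 5. The 18 cells with Stmn2 held a median of 7.5 of the 14 capillary genes and the 41 without it a median of 10. Gpihbp1 was less exclusive and was in 8 of the 18 cells with Stmn2. Fewer UMIs lower both counts, and the cells with Car4 had a median of 2384 UMIs against 3939 in those without it. In sparse counts a missing UMI is not absence, and no test was made on these cells.

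**Figure D3:**
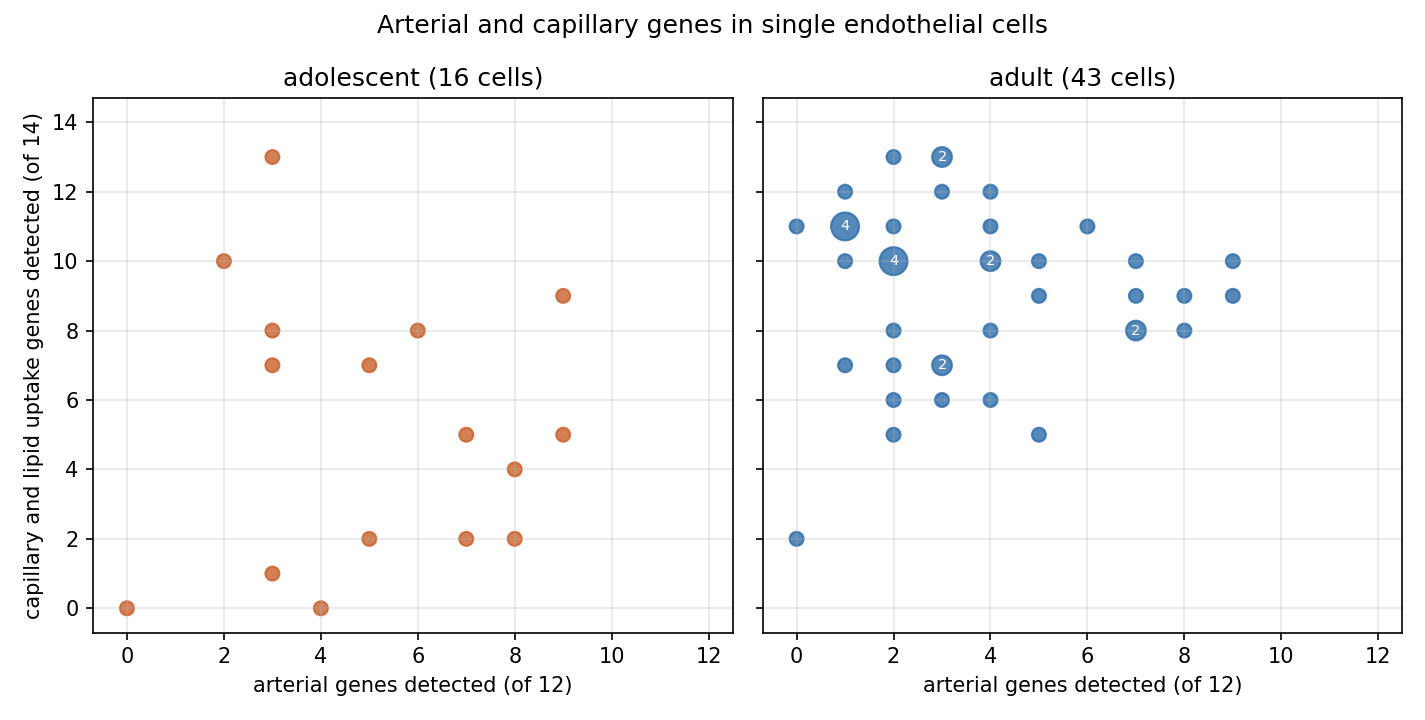
Number of arterial genes (of 12, horizontal) and of capillary and lipid uptake genes (of 14, vertical) with a UMI in each endothelial cell, for 16 adolescent (left) and 43 adult cells (right), with larger points and a printed number where cells coincide. The adolescent cells had medians of 5 and 5, and the adult cells of 3 arterial and 10 capillary genes.

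Venous genes were few. Of 10, 3 were tested, and Lrg1, a secreted glycoprotein, and Aplnr, the apelin receptor, were at least 4-fold higher, at 354 and 126 CPM, beside 13.0% of all genes. Ackr1, the chemokine-binding receptor of venules, had no UMI in endothelial cells. It was at 61.7 CPM in fibroblast-rule cells. Nr2f2, the factor of venous identity, had UMIs in 5 cells. Of 8 tip cell genes, which mark sprouting vessels, Esm1 and Dll4 were tested and at least 4-fold higher, at 179 and 103 CPM, beside 13.0% of all genes. Lrg1, Aplnr, Esm1 and Dll4 reached 100 CPM only in the endothelial sum, so their calls describe the cells and test nothing.

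Of the 8 lymphatic genes, Ccl21a, Mmrn1, Lyve1 and Reln were found in 1 cell only, Flt4 in 4 cells and Nrp2, which veins also carry, in 5 cells. The 7 cells with list genes but no Ccl21a held 10 of the 248 UMIs of the list. Ccl21a, the chemokine of lymphatic endothelium (chr4:42772860-42773993, minus strand), had 218 UMIs, all in adolescent cell 8, where they were 61739 CPM. That cell held 5 of the 8 genes and 8 of the 12 rule markers. Mmrn1 had 11 UMIs in that cell and none in any other cell of either library. Prox1 and Pdpn had no UMI in the 59 cells. The Ccl21 genes of the mouse have near-identical copies, so the count cannot be placed on 1 of them with certainty.

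Endothelial cells also make the basement membrane on which they sit. Of 11 such genes, 9 were tested, 2 were 4-fold higher and 1 was lower, beside 13.0% and 10.8% of all genes, and their median log2 ratio was 0.62. Igfbp7, a secreted protein of vessel walls, was at 2532 CPM in adolescent and 9623 CPM in adult cells, 8.68-fold higher than in all other cells (8.25 to 9.13). Adolescent cell 2, which carried mural genes, held 115 Igfbp7 UMIs, most of those in the adolescent cells. Sparcl1 was 8.52-fold higher (7.45 to 9.69). The collagen IV chains Col4a1 and Col4a2, the core of the membrane, were 1.54-fold (1.28 to 1.83) and 2.99-fold (2.47 to 3.58) higher. Nid1, which links laminin to collagen IV, was at 103 CPM against 513 CPM.

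Genes of the response to tissue digestion lay within 4-fold of all other cells. None of the 13 tested was 4-fold higher or lower, beside 13.0% and 10.8% of all genes, and their median log2 ratio was 0.23, beside 0.31. Fos was at 2984 CPM in endothelial cells and 2615 CPM in all others. Of 12 cell cycle genes, 2 were tested and neither was 4-fold different, too few to set against the shares over all genes. Birc5, Ccnb1, Ccnb2, Mcm5 and Rrm2 had no UMI, and Mki67 had 1 UMI in all 59 cells.

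Preadipocyte and fibroblast genes were low. The rule held 4 of the 11 genes of their list under a limit, and the 7 others, all tested, were at least 4-fold lower than in all other cells, beside 10.8% of all genes. These 7 genes summed to 440 CPM in adolescent and 205 CPM in adult endothelial cells, against 341 and 239 CPM in the leukocyte-rule cells and 7057 and 5581 CPM in the fibroblast-rule cells of the same libraries. Pdgfra, the receptor that marks preadipocytes, had no UMI. Of the 4 genes under the limit, Col3a1 was the most abundant, at 713 CPM, and with cells thinned to 1000 UMIs it was in 45.8% of endothelial and 48.3% of leukocyte-rule cells. Both kinds of cells were chosen for low levels of these 4 genes, so nothing is read from their values.

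Leukocyte genes were low as well. All tested genes of the T and NK (4), dendritic (4), neutrophil (2) and mast cell (4) lists and 4 of 5 B cell genes were at least 4-fold lower than in all other cells, beside 10.8% of all genes. Of 6 tested macrophage genes, C1qa, C1qb and C1qc were under a limit of the rule, and the other 3 were at least 4-fold lower. Cd74, the antigen presentation chaperone, was the most abundant, at 781 CPM in endothelial, 563 CPM in fibroblast-rule and 15806 CPM in leukocyte-rule cells. The 7 mesothelial and epithelial genes had no UMI in the 59 cells. Of 7 mature adipocyte genes, Plin1, Plin4, Cidec and Lep had no UMI. Cfd had the most, 18 UMIs, and 13 of them were in adult cell 41. Hemoglobin genes summed with 2 other red cell genes to 310 CPM, and 51 of the 54 Hba-a1 UMIs were in adult cell 5, though Hba-a1 and Hba-a2 are near-identical and their reads may be split between them.

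Mural and platelet UMIs lay in a few of the cells. The mural gene Rgs5 was at 188 CPM against 0.838 CPM, from 42 UMIs in 4 cells, 25 of them in adolescent cell 2. Its log2 ratio of 5.18 went to 1.21 with the 3 cells that carried 5 or more mural genes left out. The smooth muscle genes Acta2 and Myh11 had no UMI in any of the 59. Ppbp was at 153 CPM against 0.925 CPM, and 33 of its 34 UMIs were in adult cell 5.

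**Figure D4:**
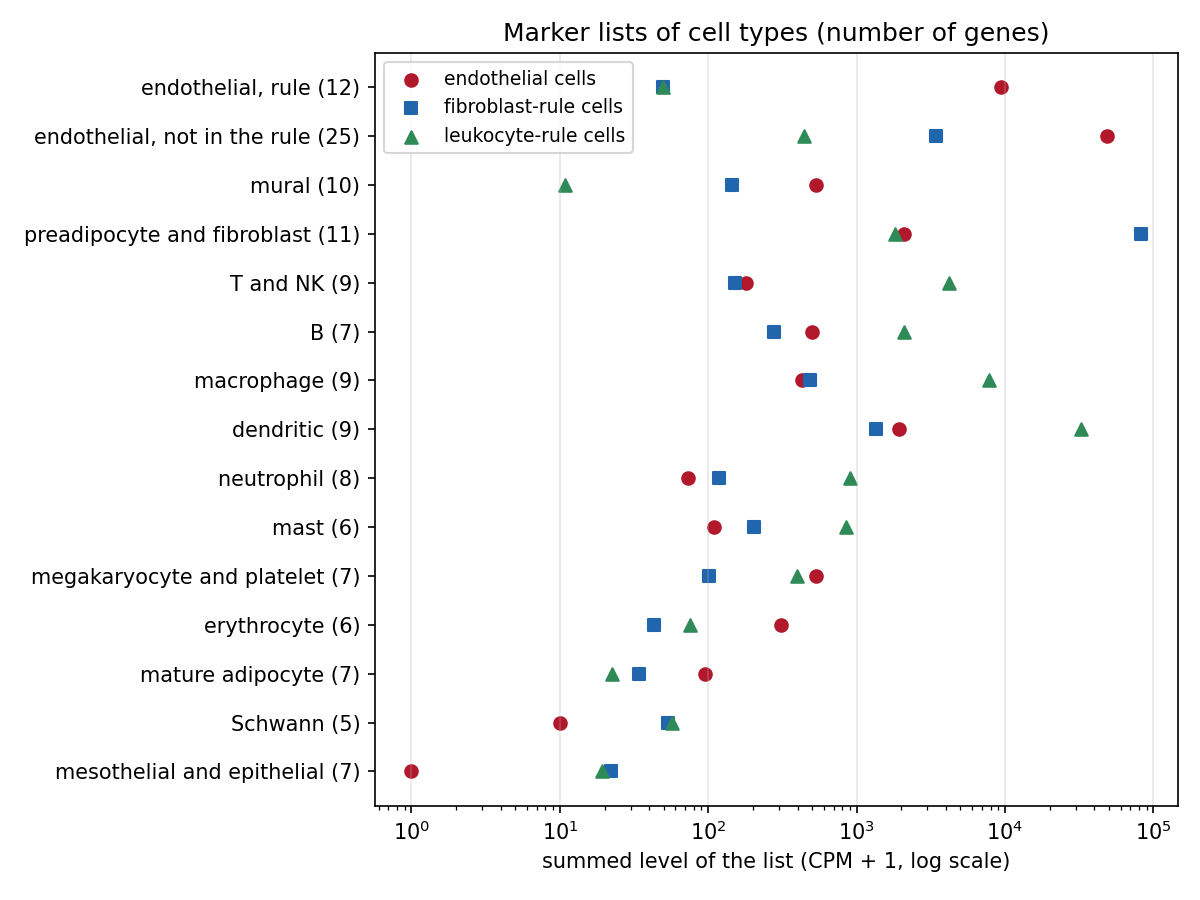
Summed level of marker lists (rows, with the number of genes) in endothelial cells, fibroblast-rule cells and leukocyte-rule cells, as CPM plus 1 on a log scale. Endothelial cells led both endothelial lists and the mural, platelet, erythrocyte and adipocyte lists, and lay near the leukocyte-rule cells for the fibroblast list and near the fibroblast-rule cells for the leukocyte lists.

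The 2 ages were compared gene by gene within the endothelial cells, by the log2 ratio of adolescent over adult CPM. Of 362 genes at 500 CPM or more at either age, 30 (8.29%) were at least 2-fold higher in the 16 adolescent cells and 42 (11.6%) at least 2-fold higher in the 43 adult cells. The median log2 ratio was 0.11. In all other cells the same genes had a median of -0.02. A gene could reach 500 CPM through 1 age alone, so the counts over gene lists below describe the cells and test nothing. Age, library and the mix of vessel types sampled cannot be told apart with 1 library per age.

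Capillary genes were higher in the adult cells. Of the 10 tested, 9 were at least 2-fold higher in the adult, against 11.6% of all genes, and the median log2 ratio was -1.64. Car4, Aqp7, Cd300lg and Aqp1 reached 500 CPM only in the adult cells, so the count and the median describe the list and test nothing. The list genes under that minimum had log2 ratios of -0.44 (Pparg), -0.65 (Meox2), -0.91 (Lpl) and -1.05 (Slc27a3). Gpihbp1 was 3.73-fold higher in the adult (2.81 to 5.04), Car4 4.37-fold (2.32 to 9.09) and Aqp7 5.16-fold (2.76 to 10.7). Fabp4 was 2.22-fold higher (2.1 to 2.34) and Cd36 2.66-fold (2.15 to 3.33). Aqp1 was the tenth gene, at 1.71-fold (1.17 to 2.55). In all other cells their median log2 ratio was -1.52. Adult cells held a median of 10 of the 14 genes and adolescent cells of 5, although the adult cells had fewer UMIs. After thinning to 1000 UMIs the medians were 7 and 2.5.

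The number of cells with Gpihbp1 also differed between the ages. After thinning, 5 of 16 adolescent and 33 of 43 adult cells held it. Among the 6 adolescent and 39 adult cells with a Gpihbp1 UMI at full depth, Fabp4 was at 39315 and 45476 CPM, 1.16-fold higher in the adult (1.08 to 1.23), and Cd36 was 1.42-fold higher (1.10 to 1.84). Aqp7 was 2.92-fold higher there (1.36 to 7.46) and Cd300lg 2.25-fold (1.30 to 4.23). Rgcc was 2.74-fold higher (1.62 to 4.99), Tcf15 2.22-fold (1.07 to 5.32) and Fabp5 1.51-fold (1.02 to 2.31). Car4 was 1.68-fold higher, with an interval of 0.890 to 3.49 that takes in no difference. These cells were chosen by 1 of the genes of the list after its values were seen.

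The 10 genes highest in the adolescent cells were Ccl21a, Mgp, Cytl1, Eln, Fbln2, Fn1, Col1a1, Igfbp4, mt-Nd3 and Col1a2. Ccl21a, from the single cell described above, had the highest log2 ratio, 7.77, and it was also higher in the adolescent library in all other cells, at 3.12. Eln, elastin (chr5:134702593-134747323, minus strand), was at 4392 CPM in adolescent and 70.9 CPM in adult cells, a ratio of 62.0 (33.3 to 130), and was found in 14 of 16 and 6 of 43 cells. Mgp, an inhibitor of vessel calcification, was at 3303 and 21.3 CPM and in 8 of 16 and 2 of 43 cells. Cytl1, a secreted cytokine-like protein, had 73 UMIs in 4 adolescent cells and none in adult cells, at least 42.0-fold higher on a floor of 3 UMIs. Fbln2, another elastic fibre protein, was 7.94-fold higher (3.95 to 17.7), and Fbln5, on the arterial list, 2.54-fold (1.85 to 3.51).

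Eln, Mgp and Cytl1 UMIs were concentrated in a few adolescent cells. The 5 cells with 20 or more Eln UMIs held 320 of the 359 adolescent Eln UMIs, and the 6 cells with 20 or more Mgp UMIs held 268 of 270. The 4 cells with Cytl1 were among both sets, had 5 to 10 of the 12 endothelial markers and no Gpihbp1, and 3 of them held both Stmn2 and Sox17. The 4 fibroblast genes took 0.299% to 0.475% of the UMIs of those 4 cells, against a median of 0.309% over the 16 adolescent cells. The rule held these 4 genes under a limit in every endothelial cell, so nothing is read from their share. In fibroblast-rule cells Eln was at 642 CPM, Mgp at 94.6 CPM and Cytl1 at 0.249 CPM. Adolescent cell 7, with 38 Eln UMIs, was the only 1 of the 5 cells with 20 or more Eln UMIs that held Gpihbp1. Among all cells with a Gpihbp1 UMI, Eln was still higher in the 6 adolescent than in the 39 adult cells. It was at 1752 CPM against 62.3 CPM there, from 50 and 8 UMIs, an adult to adolescent ratio of 0.036 (0.015 to 0.076).

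Arterial genes did not move together with age. Of the 4 tested, Stmn2 was 3.08-fold (1.96 to 4.90) and Fbln5 was 2.54-fold higher in the adolescent cells, Cxcl12 was 2.86-fold higher in the adult cells (2.13 to 3.91), and Sox17 had a ratio of 0.887 (0.583 to 1.33), beside 8.29% of all genes 2-fold higher in the adolescent and 11.6% in the adult cells. In cells with a Gpihbp1 UMI the log2 ratio of Stmn2 turned to -0.50, from 3 adolescent and 21 adult UMIs, and its adult to adolescent ratio of 1.55 had an interval of 0.464 to 8.14. Stmn2 was in 10 of 16 adolescent and 8 of 43 adult cells, and after thinning in 5 and 4. Cldn5 had an adult to adolescent ratio of 1.04 (0.865 to 1.25).

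Some genes had like age ratios outside the endothelial cells and others did not. Fn1, fibronectin, had a log2 ratio of 2.54 in endothelial cells and 1.83 in all other cells, and Gsn, among the 10 highest in the adult, of -2.52 and -2.24. Col1a1 had 2.41 and 2.35 and Col1a2 1.67 and 1.79, though the rule capped both genes. Igfbp4, a binding protein of insulin-like growth factors, had 2.16 in endothelial cells and -0.05 in all other cells. The mitochondrial gene mt-Nd3 had 1.73 and 0.43, beside the higher mitochondrial share of the adolescent endothelial cells given above, whose part in the result was not tested.

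The 10 genes highest in the adult cells held AW112010, Plvap, Gsn, Retnla, Pim3, Plpp3, Aqp7, Bst2, Itm2a and Ctla2a. AW112010, an RNA induced by interferon, was 18.1-fold higher in the adult (6.90 to 67.5), and Bst2, another interferon-induced gene, 4.78-fold (2.84 to 8.60). Their log2 ratios were -2.11 and -0.93 in all other cells. Of the 129 adult Ctla2a UMIs, 45 were in adult cell 5, the cell with platelet genes, and its log2 age ratio of -2.07 was -1.42 without the 2 cells that held 3 markers and -0.14 in cells with a Gpihbp1 UMI. Itm2a, at 184 CPM in adolescent and 815 CPM in adult endothelial cells, went the other way in all other cells, with a log2 ratio of 2.47. Its adult level came mostly from the 6 adult cells with 20 or more Plvap UMIs described below. They held 105 Itm2a UMIs, and the other 37 adult cells were at 92.3 CPM, below the adolescent cells. Most adult Plvap and Plpp3 UMIs lay in the same 6 cells. Retnla, at 546 CPM in the adult endothelial cells, was at 5434 CPM in leukocyte-rule cells.

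**Figure D5:**
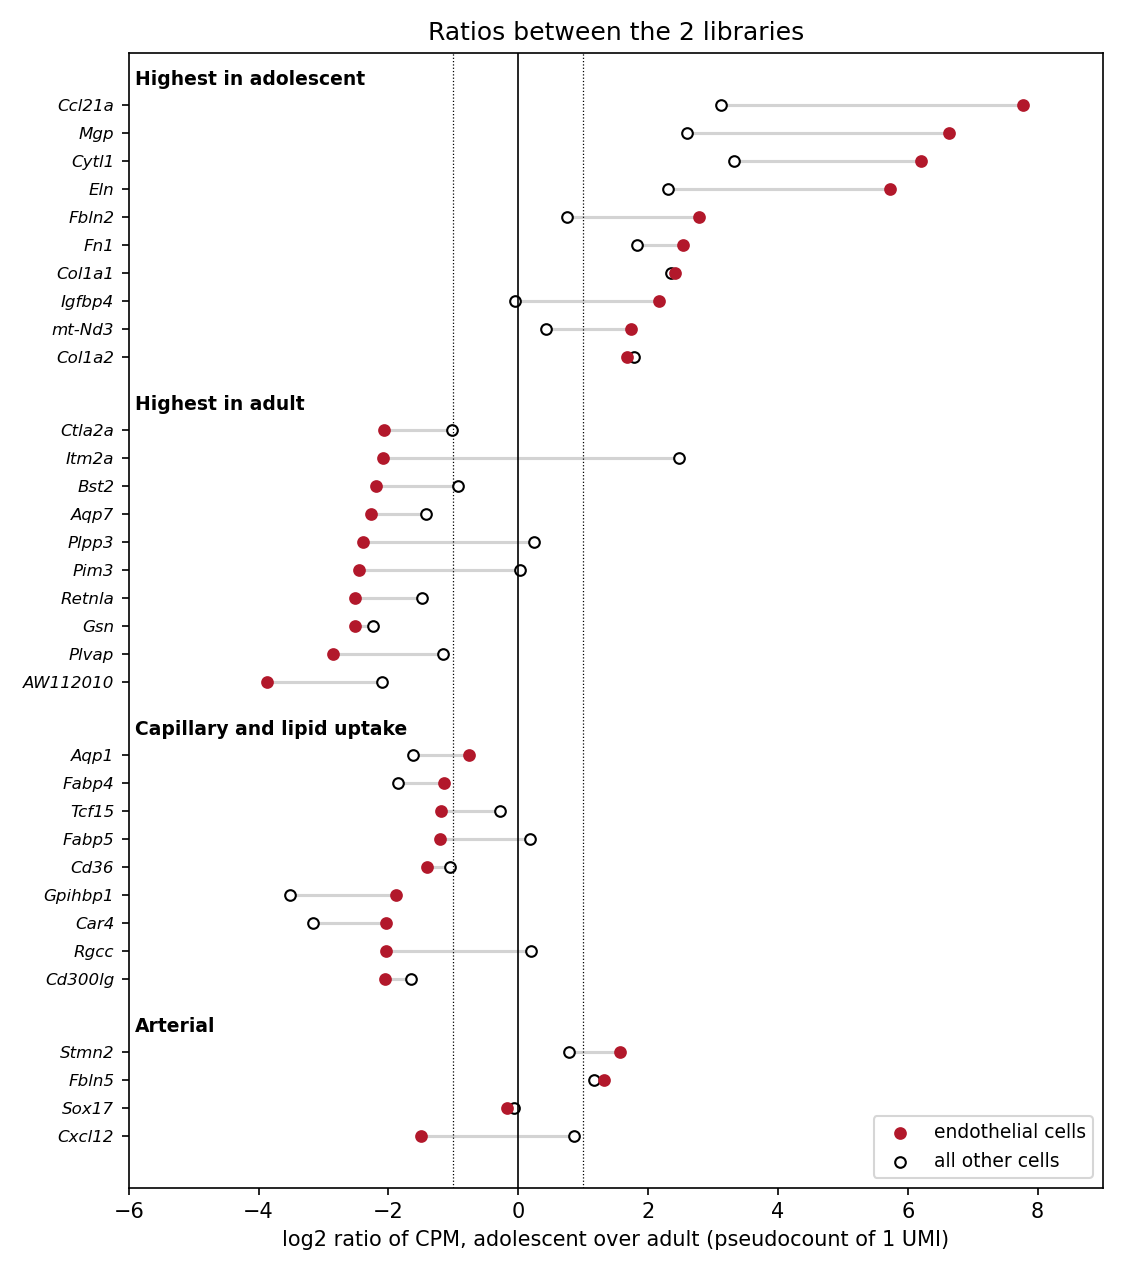
Log2 ratio of CPM, adolescent over adult, for the 10 highest and 10 lowest genes and the other tested capillary and arterial genes, in endothelial cells (red) and all other cells (open), with dotted lines at 2-fold. Col1a1 and Col1a2 lay at the same place in both, while Itm2a and Igfbp4 lay far apart.

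Plvap, which forms the diaphragms of fenestrated and caveolar endothelium, had most of its adult UMIs in 6 cells. These had 26 to 53 Plvap UMIs, and the other 37 adult cells had 0 to 9. The 6 cells held 224 of the 249 adult Plvap UMIs and had 10 or 11 of the 12 endothelial markers each. Their median of 5116 UMIs was above the 2452 of the other 37. They were picked by Plvap after the values were seen, so what follows is a description.

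The 6 cells had no Cldn5 UMI, whereas the other 37 adult cells had 325, in 34 of the 37, so Cldn5 was at least 32.8-fold lower in them on a floor of 3 UMIs. They also had no Car4 UMI, at least 8.38-fold lower. Fabp4 was at 11556 CPM in them and 51909 CPM in the others, and Tcf15 at 61.0 CPM and 729 CPM. Gpihbp1 was still found in 5 of the 6. Igfbp7 was at 26800 CPM against 4422 CPM, and the 6 cells held 64.7% of the adult Igfbp7 UMIs. Lrg1 was in 6 of 6 cells and in 2 of 37, Itm2a in 6 of 6 and 5 of 37, and Esm1 in 4 of 6 and 3 of 37. Plpp3, which degrades lipid phosphates outside the cell, was at 3750 CPM against 517 CPM, and Thbd, the thrombin receptor thrombomodulin, at 579 CPM against 102 CPM. Of the other venous genes, Aplnr was in 2 of 6 and 10 of 37 cells, and Ackr1, Selp and Vwf had too few UMIs in the adult cells to compare. Tshz2 was found in all of the 6 cells but adult cell 11, and in a minority of the other 37, which had fewer UMIs. Nr2f2, Ephb4, Vcam1 and Sele were not compared. The 6 cells held 105 Itm2a UMIs against 10 in the other 37, and 123 Plpp3 UMIs against 56.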

How the data were processed

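Per the labels and the paper's methods, the authors ran Cell Ranger on GRCm38 for both libraries, counted UMIs and deposited raw UMI counts per gene and cell, with no normalization. The deposited matrices hold 31125 genes, and gene positions were taken from GENCODE M21 on GRCm38, where 99.9% of the identifiers were found. No cell was removed, and no cell had under 1000 UMIs. Cells were chosen by the rule given in the report. The cells and the gene lists were chosen with earlier results of these data known, and some genes stand in more than 1 list. UMIs were summed over cells and scaled to CPM, and log2 ratios used a pseudocount of 1 UMI. Intervals are exact at 95% (Poisson for sums, binomial for ratios, Clopper-Pearson for shares). The genes named were the members of 26 lists, the 20 highest and 10 lowest ratios to all other cells at 100 CPM or more outside the genes of the rule (the highest also in at least 25% of the cells), and the 10 highest and 10 lowest age ratios at 500 CPM or more. Cells with no replicate library allow no test, so no p-value is given. Doublets were scored with Scrublet in scanpy 1.11.5 and left in. The ratio code was tested on simulated data. The alternatives were other limits of the rule, pseudocounts, minimum CPM, mean CPM per cell and single libraries. The analysis used Python 3.11.15, numpy 2.4.6, scipy 1.17.1 and pandas 2.3.3.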

Additional observations from a re-analysis of the deposited data

How the results depend on the processing

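No paired analysis was possible because each age has 1 library. With 2 markers as the minimum, the adult share became 1.07%, and the other limits tried kept both shares within the intervals given. A minimum of 20 CPM or none tests more genes: 571 and 597 genes were then 4-fold higher in endothelial cells and 546 and 683 lower, and between the ages 1031 and 1881 genes were 2-fold higher in the adolescent and 1206 and 1691 in the adult cells. In the pooled cells 1 UMI was 4.49 CPM. For single genes, 2069 of 2262 alternative values of the ratio to all other cells and 798 of 825 of the age ratio moved by under 1 (log2). The minimum CPM settings could move none, since they only choose which genes are tested, and the Scrublet setting took out no endothelial cell. Each of these settings added 174 and 75 unmoved values to those totals, so the totals overstate how little the ratios moved. Of 174 genes set against all other cells, 77 moved further in the adolescent library alone. Another setting, without cells holding 2 or more markers of another class, moved 58. In all, 185 and 22 values moved further, and 8 and 5 changed sign from a ratio past the 4-fold or 2-fold limit.

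These changes of sign came with the choice of cells. The ratio of Ccl21a was -0.93 without its single cell and -0.0069 in the adult library. In cells with Gpihbp1, Cytl1 was at -0.29, Mgp at -0.93 and the age ratio of Stmn2 at -0.50, an alternative chosen after seeing the data, as were those without mural cells or the Ccl21a cell. Eln was at -0.60 in the adult library. Ppbp was at -0.070 in the adolescent library and at -0.16 in the 25 cells with under 2 genes of any other class, where Rgs5 was at -0.16. The age ratio of Igkc, 1.62 with all cells, was -0.99 with a minimum of 4 markers, -0.94 with Ptprc at 0 UMIs, -1.09 in the 25 cells and -0.92 in cells with Gpihbp1; adolescent cell 14, with B cell genes, is left out in each. Depth limits low genes: 3 UMIs are 36.7 CPM of the adolescent and 21.3 CPM of the adult cells.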
